A study of Homo sapiens with 4 samples.

Results

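Interferon-stimulated genes are the genes that cells switch on when they sense interferon, and their products block viruses at entry, replication, translation and release. To describe how their promoters and surroundings were marked in triple-negative breast cancer cells, 46 such genes were taken by name from a list, out of 19970 protein-coding genes with a start site on chromosomes 1 to 22 and X. They were arranged into 10 roles, from the transcription factors of the pathway to the proteins it induces. The rule that names them uses no measured value, although earlier results of these data were known when the list was drawn up.

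Type I and type III interferons act through paired receptors and the kinases JAK1 and TYK2, which phosphorylate STAT2. A complex that holds STAT2 and IRF9 then binds the interferon-stimulated response element, a short sequence found upstream of many of these genes, whereas interferon gamma acts through the gamma-activated site and induces IRF1. H3K27ac, the acetylation of a lysine in the tail of histone H3, marks active promoters and enhancers, and in many cell types a fraction of interferon-stimulated genes keeps a basal level of activity without infection.

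H3K27ac was measured by chromatin immunoprecipitation and sequencing (ChIP-seq) in MDA-MB-231 and Hs578T, established human breast cancer lines that lack hormone receptors and HER2 amplification. Cells of both lines had been starved of serum for 8 h in Opti-MEM, given 10 ng/ml of the cytokine TWEAK, the ligand of the receptor Fn14, for 48 h, and left without it for 72 h of washout, although the text of the study describes a longer wash-off. There were 4 libraries, 2 per line, with peaks called in each one separately. All 4 came from cells that had received TWEAK, and none had received interferon per the labels, so that neither an effect of TWEAK nor an induction by interferon was measured here.

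The lists differed in size before any gene was considered. MDA-MB-231 replicate 1, as labelled, had only 209 peaks, against 43353 in MDA-MB-231 replicate 2, 46330 in Hs578T replicate 1 and 44920 in Hs578T replicate 2. None of the 46 genes had a promoter peak in the small list, where 0.0601% of all protein-coding genes had one, and none had a peak within 50 kb, where 1.11% did. A count of 0 of 46 allows a share of up to 6.52%. The housekeeping genes ACTB and GAPDH had no peak within 50 kb in that list either. Values below are therefore given for the 3 large lists, always in the order MDA-MB-231 replicate 2, Hs578T replicate 1 and Hs578T replicate 2, and line means are given with and without the small list. The start sites of VIM, CD44, AXL and TNFRSF12A, the gene of Fn14, were marked in all 3 large lists, as were ACTB and GAPDH. ESR1, PGR, GATA3 and FOXA1 had no promoter peak, and ERBB2 had a weak one, with a fold enrichment of 3.92, 3.52 and 2.68. Within 50 kb of GATA3, however, peaks covered 7199, 10992 and 10499 bp. For ESR1 this was 848, 915 and 644 bp, and for PGR and FOXA1 it was 0.

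Promoter sequences of 7 of the genes are shown because they carry the comparison that follows, of strongly marked, moderately marked and unmarked promoters. Each is the 170 bases that end just before the start site, in hg38, written in the direction of the gene. Capitals mark matches to the core letters of the interferon-stimulated response element, taken as 2 copies of GAAA with 2 bases of any kind between them, on either strand, and overlapping matches run together. IFIT3 and HERC5 had promoter peaks of high rank, and ISG15 and GBP1 of lower rank, whereas RSAD2, CMPK2 and OAS1 had none. The last 2 of these hold no match in the bases shown. Near its end the OAS1 sequence holds 2 copies of GAAA with a single base between them, which that pattern does not count. The 7 promoters do not stand for the whole set. Of genes marked in all 3 large lists, 21 of 40 held a match in the 250 bases before the start site.
IFIT3, chr10:89327827-89327996, plus strand: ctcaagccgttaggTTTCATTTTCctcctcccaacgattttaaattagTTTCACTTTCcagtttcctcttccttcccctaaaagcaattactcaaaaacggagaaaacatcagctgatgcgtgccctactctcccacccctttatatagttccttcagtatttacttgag
HERC5, chr4:88456949-88457118, plus strand: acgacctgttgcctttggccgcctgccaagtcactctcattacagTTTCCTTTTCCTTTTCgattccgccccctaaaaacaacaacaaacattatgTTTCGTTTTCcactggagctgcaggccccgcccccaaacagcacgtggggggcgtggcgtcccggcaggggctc
ISG15, chr1:1013327-1013496, plus strand: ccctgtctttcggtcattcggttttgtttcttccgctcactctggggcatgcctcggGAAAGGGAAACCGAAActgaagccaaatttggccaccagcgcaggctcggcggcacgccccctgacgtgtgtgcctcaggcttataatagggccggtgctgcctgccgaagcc
GBP1, chr1:89065209-89065378, minus strand: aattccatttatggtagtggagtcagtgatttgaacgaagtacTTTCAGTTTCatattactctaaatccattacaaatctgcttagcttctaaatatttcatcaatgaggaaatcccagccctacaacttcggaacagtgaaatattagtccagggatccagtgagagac
RSAD2, chr2:6877607-6877776, plus strand: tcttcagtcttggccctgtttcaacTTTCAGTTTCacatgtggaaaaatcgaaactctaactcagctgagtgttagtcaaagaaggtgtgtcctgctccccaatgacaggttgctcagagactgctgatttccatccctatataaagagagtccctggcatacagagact
CMPK2, chr2:6865908-6866077, minus strand: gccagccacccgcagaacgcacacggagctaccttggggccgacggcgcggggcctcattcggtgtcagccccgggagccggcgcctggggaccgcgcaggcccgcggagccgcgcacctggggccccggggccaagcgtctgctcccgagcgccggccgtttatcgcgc
OAS1, chr12:112906792-112906961, plus strand: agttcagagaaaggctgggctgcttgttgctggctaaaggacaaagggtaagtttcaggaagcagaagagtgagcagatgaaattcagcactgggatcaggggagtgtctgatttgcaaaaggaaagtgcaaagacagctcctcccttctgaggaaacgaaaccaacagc

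Most of the genes were marked at the start site, but with peaks of modest strength. A promoter peak, one that reached within 1 kb of the Ensembl canonical start site in GENCODE, was found for 41, 42 and 41 of the 46 genes. These are 89.1%, 91.3% and 89.1%, with 95% Wilson intervals of 77.0% to 95.3%, 79.7% to 96.6% and 77.0% to 95.3%. Of all protein-coding genes, 58.1%, 58.2% and 56.4% had a promoter peak. In all 3 large lists 40 genes were marked, or 87.0% (interval 74.3% to 93.9%), compared with 55.6% of all genes. A further 2 genes, UBE2L6 and TRIM22, were marked in some of the large lists, a state that 3.69% of all genes had. The remaining 4 genes, OAS1, MX1, RSAD2 and CMPK2, had no peak at the canonical start site in any list, as was the case for 40.7% of all genes. The intervals cover counting error only, and neighbouring genes in the list share peaks, so that they are not independent.

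Strength was read from the fold enrichment of the peak over the local background, which does not tell how many cells of a culture carried the mark. Since that background belongs to each library, the size of the fold was not compared between lists, and the percentile among all marked protein-coding promoters of the same list was used in its place. Over the marked genes the median fold enrichment was 6.95, 5.63 and 5.02, whereas over all marked promoters it was 9.18, 8.13 and 6.86. The median percentile of the genes was 32.8, 27.4 and 28.4. Thus 27 of 41, 28 of 42 and 27 of 41 lay under the median of all marked promoters, which by construction holds 50% of them, and 2, 2 and 1 lay in the highest 10.0%.

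The count of marked genes depended on weak peaks. When only the strongest 50% of the peaks of each list by score were kept, 26, 27 and 22 genes had a promoter peak, against 44.9%, 45.9% and 42.3% of all genes. That left 21 genes in all 3 large lists, or 45.7% (interval 32.2% to 59.8%), beside 40.7% of all genes. Among peaks with a −log10 q-value of at least 5, 33, 34 and 29 genes were marked, with 52.6%, 53.0% and 46.9% of all genes, and 27 genes (58.7%) were marked in all 3, with 46.4% of all genes. When only the strongest 50% were kept, the genes that left the count for all 3 lists were ISG15, IFI6, IFI27, IFI44, IFI44L, IFITM1, IFITM2, MX2, GBP2, OAS3, OASL, PARP9, DTX3L, PARP14, SAMD9, SAMD9L, SP110, TRIM21 and USP18.

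**Figure D1:**
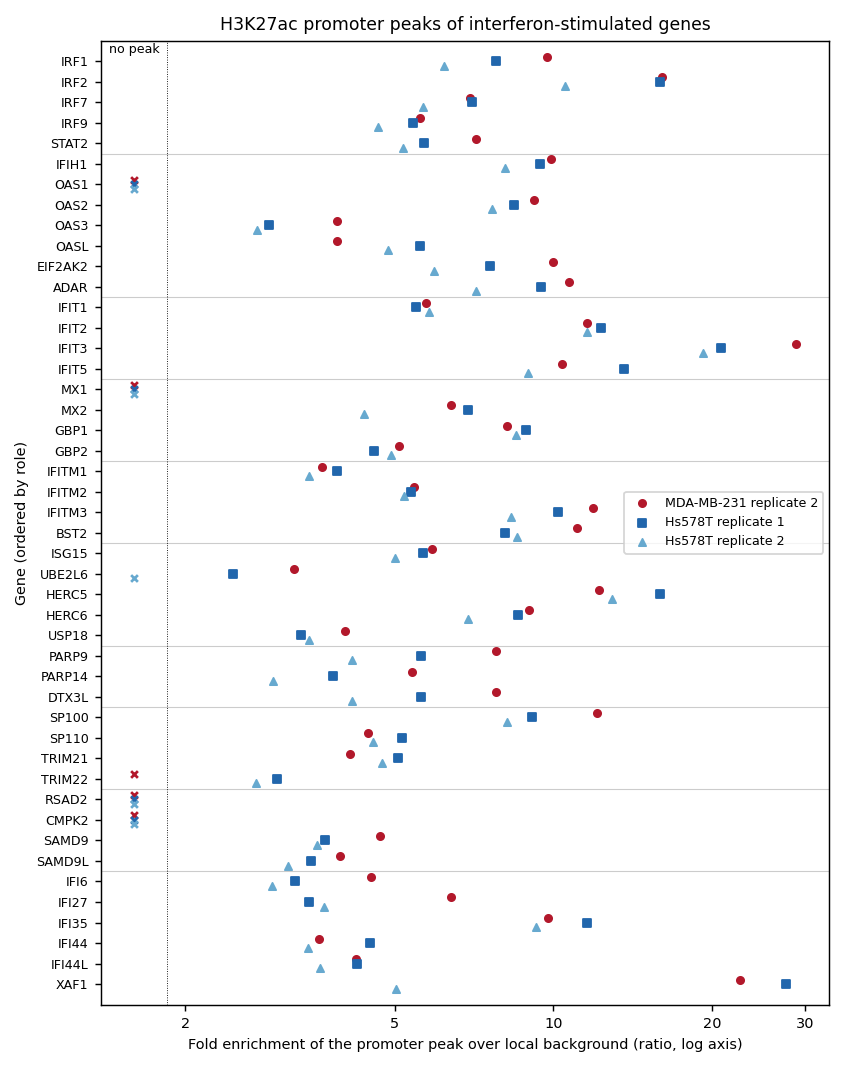
Fold enrichment of the promoter peak over local background (ratio, log axis) for each gene in the 3 large lists, with genes grouped by role and crosses for genes without a promoter peak in a list. The marked genes spread from 2.46 for UBE2L6 to 28.9 for IFIT3, and OAS1, MX1, RSAD2 and CMPK2 have crosses in every list.

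Width differed less from other genes than strength did. The promoter peaks had a median width of 1913, 1921.5 and 1874 bp, beside 1792, 1897 and 1804 bp over all marked promoters, and ranged from 217 bp at IFI27 to 11065 bp at IFI35. The canonical start site lay inside the peak for 39 of 41, 40 of 42 and 39 of 41 genes, a state that 90.9%, 91.1% and 88.4% of all marked genes had. Within 50 kb of the start site, peaks covered a median of 5195.5, 5578.5 and 4689 bp, beside 3824, 4223.5 and 3891 bp over all genes. At least 1 peak lay within 50 kb of 44 genes in each large list, or 95.7%, compared with 82.8%, 83.2% and 82.6% of all genes. In the highest 10.0% of all genes by covered bases were 5, 4 and 4 of the 46.

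The transcription factors of the pathway were all marked, 5 of 5 in the 3 large lists. IRF2, which binds the same elements as IRF1 and often opposes it, had the second highest mean percentile among the genes, with a fold enrichment of 16.1, 15.9 and 10.5 over widths of 3927, 4040 and 4059 bp. The same peak also held the start sites of IRF2-DT and of a further non-coding gene, and their signals cannot be told apart. IRF1, the factor induced by interferon gamma, had a promoter peak of 9.73, 7.78 and 6.19 in fold and of 3383, 1688 and 1492 bp in width. Its surroundings carried more than its promoter, since 23983, 24207 and 23549 bp were covered within 50 kb, the third most among the genes by the mean of the 3 large lists. There the strongest peak was centred 6171, 6356 and 6206 bp upstream of the start site on chromosome 5, with a fold enrichment of 25.7, 23.9 and 19.0. The nearest canonical start site of any gene was 3641, 4007 and 3780 bp from that peak. IRF7, the factor that amplifies interferon production, had a broad promoter peak of 3972, 5597 and 4712 bp with a fold of 6.95, 7.01 and 5.66.

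IRF9 and STAT2, which join in the interferon-activated complex, were marked below the median. IRF9, the DNA-binding subunit, had a fold enrichment of 5.59, 5.41 and 4.65, at percentiles of 21.1, 25.2 and 23.3. STAT2 had 7.13, 5.68 and 5.19, at percentiles of 34.3, 27.8 and 30.5. For both genes the strongest peak within 50 kb stood at the start site of another gene.

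Genes that sense double-stranded RNA or respond to it were marked for 6 of 7 members, at very different strengths. IFIH1, which encodes the RNA sensor MDA5, had a fold enrichment of 9.90, 9.42 and 8.09, and ADAR, the enzyme that edits adenosine in double-stranded RNA, had 10.7, 9.47 and 7.14. EIF2AK2, the kinase PKR that halts translation, had 9.96, 7.59 and 5.92, and its peak was 1975 bp wide in MDA-MB-231 replicate 2 and 4283 bp in both Hs578T lists. OASL, a relative of the oligoadenylate synthetases that lacks their catalytic activity, had a narrow peak of 835, 1005 and 867 bp with a fold of 3.89, 5.59 and 4.86.

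The oligoadenylate synthetases, which activate RNase L, lie side by side on chromosome 12, with start sites of OAS1, OAS3 and OAS2 spread over 71558 bp in that order. OAS2 had a clear promoter peak of 2172, 2243 and 2135 bp, with a fold enrichment of 9.18, 8.40 and 7.64. OAS3 had the lowest mean percentile among genes marked in all 3 large lists, 3.29 ± 2.75 (SD over the 3 lists), with a fold of 3.88, 2.89 and 2.74 over 752, 719 and 702 bp. OAS1 had no promoter peak, and the nearest peak began 31294, 31013 and 31099 bp away. That peak was the one at OAS3, and it made up all of the 752, 719 and 702 bp covered within 50 kb of OAS1. Inside the OAS2 gene a stronger peak was centred 28709, 28410 and 28685 bp downstream of its start site, with a fold of 16.6, 25.8 and 20.9. No canonical start site of any gene was closer to it than 7117, 7146 and 7148 bp.

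The IFIT genes, whose proteins bind viral RNA and translation initiation factors, were the most heavily marked role, with 4 of 4 marked in all 3 large lists. IFIT3 had the highest mean percentile of all, 97.2 ± 1.84, with a fold enrichment of 28.9, 20.8 and 19.2. Its −log10 q-value was 149, 104 and 71.3. IFIT2 followed at 74.8 ± 8.30, with a fold of 11.6, 12.3 and 11.6. Another annotated transcript start of IFIT2 lay 18352 bp upstream of the canonical one, under a stronger peak. That peak was 9071, 9369 and 10895 bp wide with a fold of 18.4, 26.2 and 23.4. It also lay within 2.5 kb of the canonical start site of another gene, so its signal cannot be given to IFIT2 alone. With that peak, IFIT2 had the most covered bases within 50 kb, namely 25739, 35059 and 32713 bp. IFIT3 had 24754, 34224 and 30470 bp, but its start site lies 25951 bp from that of IFIT2, so that both counts hold many of the same peaks. IFIT5 had a fold of 10.4, 13.6 and 8.93. IFIT1 was the weakest of the family, with 5.73, 5.49 and 5.81, although its peak of 2096, 2026 and 2103 bp was similar in width to that of IFIT5, of 2329, 2113 and 2173 bp.

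The strongest peak near the IFIT genes was not at a canonical start site. In MDA-MB-231 replicate 2 it ran from 48.2 to 51.4 kb past the start site of IFIT2, at chr10:89350228-89353474, between IFIT3 and IFIT1B. It had a fold enrichment of 38.2, 47.0 and 36.5 and widths of 3247, 3997 and 4229 bp. The nearest canonical start site of any gene was 8820, 8059 and 7950 bp away. The domain at IFIT3 differed in extent between the lists. In both Hs578T lists a single peak of 9004 and 8629 bp covered the start site, whereas MDA-MB-231 replicate 2 had a peak of 3035 bp there and a separate one of 3286 bp further into the gene, with a fold of 5.19. IFIT2 had widths of 2884, 5764 and 4096 bp. The map of the IFIT neighbourhood shows the peaks in their places, but it does not reach the upstream start of IFIT2.

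**Figure D2:**
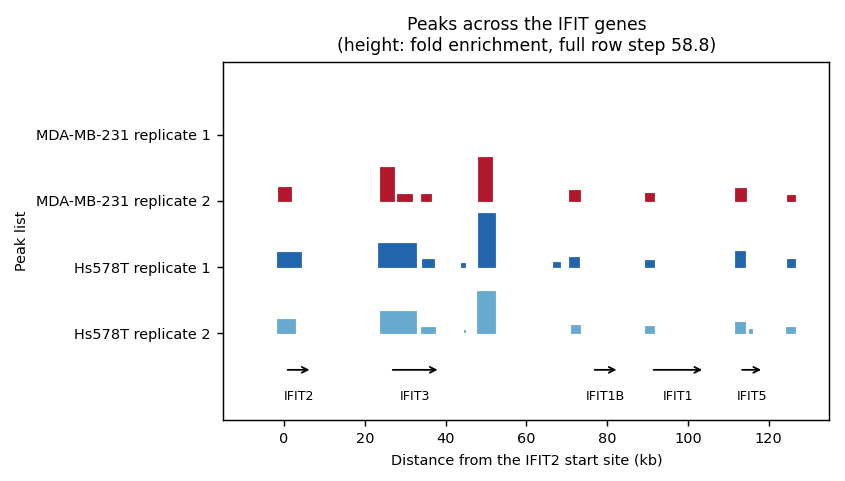
H3K27ac peaks across the IFIT genes, one row per list, with distance from the IFIT2 start site in kb on the horizontal axis, the height of each block giving its fold enrichment, and arrows for genes. The tallest block in each large list lies between IFIT3 and IFIT1B with a fold enrichment of 38.2, 47.0 and 36.5, and the row of MDA-MB-231 replicate 1 is empty.

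Of the interferon-induced GTPases, 3 of 4 were marked. GBP1, a guanylate-binding protein that coats intracellular pathogens, had a fold enrichment of 8.16, 8.87 and 8.49 at percentiles of 42.6, 55.8 and 65.1, higher in both Hs578T lists than in MDA-MB-231 replicate 2. GBP2 had 5.08, 4.56 and 4.91. MX2, which restricts HIV nuclear entry, had 6.38, 6.89 and 4.36, and its promoter peak of 942, 1048 and 836 bp held all the covered bases within 50 kb.

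MX1, the influenza restriction factor, had no peak at the canonical start site on chromosome 21, where the nearest one was 5098, 4704 and 4664 bp away. That peak lay upstream and overlapped the windows of 10 of the 28 basic transcript starts of the gene, including a start 6219 bp upstream of the canonical one. It was 544, 1196 and 1617 bp wide with a fold enrichment of 4.96, 3.73 and 2.97. When every basic transcript start was allowed, MX1 thus counted as marked in all 3 large lists, and the number of genes marked in all of them became 41.

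The membrane restriction factors were marked for 4 of 4 members. BST2, or tetherin, which holds budding virions on the cell surface, had a peak of 4161, 4244 and 4191 bp with a fold enrichment of 11.1, 8.08 and 8.51. The same peak also held the start site of BISPR, a non-coding gene beside it, and the 2 cannot be told apart. The IFITM genes, which block fusion of virus and cell membranes, lie within 13045 bp on chromosome 11. IFITM3 was the strongest of them, with 11.9, 10.2 and 8.32, at percentiles of 67.7, 65.2 and 63.8. Its peak also held the start site of a non-coding gene. IFITM1 was among the weakest of the 46 genes, with 3.63, 3.88 and 3.43, at percentiles of 4.78, 10.7 and 7.96. IFITM2 lay between, with 5.43, 5.37 and 5.21. Its peak was 3804 and 3792 bp wide in the first and second large list, where it extended past the end of the gene, but 925 bp in Hs578T replicate 2, where it began 235 bp past the start site. In each list the peak also held the start site of a further annotated protein-coding gene.

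A strong peak also lay beyond the IFITM genes. It was centred 41834, 41508 and 41792 bp from the start site of IFITM1, with a fold enrichment of 36.6, 39.6 and 29.6. The nearest canonical start site was 13046 bp away. Its last base, 356453, was the same in all 3 large lists, whereas its first base was 355295, 354644 and 355212. Whether that shared edge was cut in processing was not tested. The peak was shared by the counts of covered bases of the 3 genes.

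Of the genes for ISG15, a ubiquitin-like modifier, and for its conjugation and removal, 4 of 5 were marked in all 3 large lists. ISG15 itself had a fold enrichment of 5.88, 5.65 and 5.0 over 2398, 2533 and 2747 bp, at percentiles of 23.5, 27.6 and 28.2. That peak also held the start site of a non-coding gene. ISG15 was the fifth by covered bases, with 16418, 16255 and 14613 bp, but the strongest peak within 50 kb stood at the start of another gene, 47116, 47165 and 46916 bp upstream. Another annotated transcript start of ISG15 lay 12359 bp upstream of the canonical one, under a peak with a fold of 16.9, 12.2 and 8.23. That peak also lay within 2.5 kb of the canonical start site of another gene, so its signal cannot be given to ISG15 alone. HERC5, the main ISG15 ligase, had a far higher percentile of 81.3 ± 10.6, with a fold of 12.2, 15.9 and 12.9. HERC6, the neighbouring relative, had 8.97, 8.58 and 6.89. USP18, which removes ISG15 and dampens receptor signalling, had 4.02, 3.31 and 3.44, at a mean percentile of 7.07 ± 1.26.

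UBE2L6, the conjugating enzyme between them, was at the limit of detection. In MDA-MB-231 replicate 2 its peak of 678 bp, with a fold enrichment of 3.22, began 993 bp past the start site, just inside the window. In Hs578T replicate 1 a peak of 748 bp with a fold of 2.46 held the start site, and in Hs578T replicate 2 the nearest peak was 36845 bp away. At 500 bp on either side of the start site it was marked in Hs578T replicate 1 alone.

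The PARP9 and DTX3L genes, which encode a complex of an ADP-ribosyltransferase relative and a ubiquitin ligase, start 38 bp apart in opposite directions and shared 1 peak in each large list. It was 1302, 1103 and 1326 bp wide with a fold enrichment of 7.78, 5.61 and 4.15. PARP14, an ADP-ribosyltransferase further along the chromosome, had 5.38, 3.81 and 2.94, so that all 3 genes were marked in all 3 large lists. Their percentiles lay between 2.71 and 39.4, below the median in every list.

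Among nuclear body and TRIM proteins, 3 of 4 were marked in all 3 large lists. SP100, a component of nuclear bodies that restrains viral genomes, had a fold enrichment of 12.1, 9.12 and 8.16, at percentiles of 68.7, 57.6 and 62.3, and a peak of 1625 bp in MDA-MB-231 replicate 2 but 3833 and 3693 bp in the Hs578T lists. SP110, its relative, had 4.45, 5.15 and 4.54. TRIM21, the cytosolic antibody receptor, had one of the narrowest peaks, of 314, 311 and 367 bp, which began 32, 53 and 36 bp past the start site and therefore did not hold it.

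TRIM22 had a peak of 420 bp in Hs578T replicate 1 and 402 bp in Hs578T replicate 2, with a fold enrichment of 2.98 and 2.72. In MDA-MB-231 replicate 2 the nearest peak to its start site was 4151 bp away, outside the window, and stood at the start of the neighbouring TRIM5. The gene was thus marked in both Hs578T lists and in neither MDA-MB-231 list, but its percentiles of 3.12 and 0.932 put it near the weakest peaks that were called, and a difference between the lines cannot be told apart from a peak just under the calling threshold.

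The clearest absence of the mark was at RSAD2 and CMPK2. RSAD2 encodes viperin, which makes a chain-terminating nucleotide from CTP, and CMPK2 encodes a mitochondrial nucleotide kinase. They lie 11870 bp apart on chromosome 2 in opposite directions, and no base within 50 kb of either start site was covered in any list. The nearest peak to RSAD2 was 947468, 690448 and 690551 bp away. For CMPK2 it was 959338, 678578 and 678681 bp away. RSAD2 holds a match to the response element core in its upstream sequence, as shown above, and CMPK2 has a CpG ratio of 0.816, among the highest of the 46 genes.

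SAMD9 and SAMD9L, which restrict poxvirus translation, make up the rest of that role and were both weakly marked in all 3 large lists. SAMD9 had a fold enrichment of 4.69, 3.68 and 3.56 over 4343, 3621 and 3070 bp. SAMD9L had 3.94, 3.47 and 3.14 over 1700, 1637 and 1874 bp, at the second lowest mean percentile among genes marked in all 3, 6.17 ± 1.24.

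The other interferon-induced proteins were marked for 6 of 6 genes. XAF1, which promotes apoptosis, had a fold enrichment of 22.6 and 27.6 over 5925 and 5838 bp in the first and second large list. In Hs578T replicate 2 the same stretch was called as separate peaks, of which that at the start site had a fold of 5.02 over 1315 bp and that upstream had 31.7, so that the mean percentile of 74.3 carried an SD of 39.8. IFI35, which acts in innate signalling, had the widest peaks of all, of 10071, 10181 and 11065 bp with a fold of 9.75, 11.6 and 9.25. Most of each lay upstream, and it also held the start site of RPL27, a ribosomal protein gene, so that the signal cannot be given to either gene alone.

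The remaining genes of that role were weak. IFI6, a mitochondrial and endoplasmic reticulum protein, had a fold enrichment of 4.51, 3.23 and 2.92, at a mean percentile of 6.37 ± 4.70. IFI27, a small mitochondrial protein, had 6.38, 3.43 and 3.66 over no more than 630 bp. IFI44 had 3.59, 4.49 and 3.42 and IFI44L 4.21, 4.23 and 3.6, and their start sites lie 29383 bp apart on chromosome 1.

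**Figure D3:**
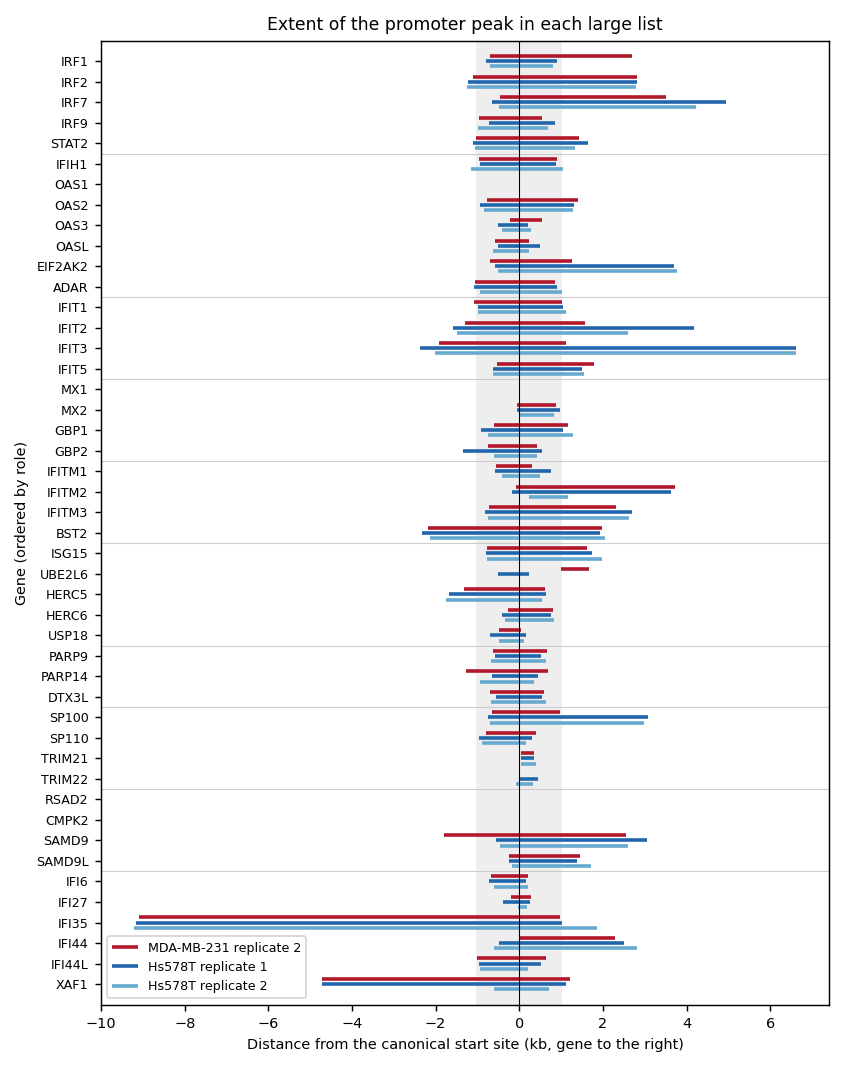
Extent of the promoter peak of each gene in the 3 large lists, as distance from the canonical start site in kb with the gene to the right, and the promoter window of 1 kb shaded. The peaks of IFI35 reach 9101, 9159 and 9209 bp upstream, those of IFIT3 are longer in both Hs578T lists, and that of XAF1 is short in Hs578T replicate 2.

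In order of mean percentile over the 3 large lists, IFIT3 (97.2 ± 1.84) led IRF2 (83.0 ± 5.03), HERC5 (81.3 ± 10.6), IFIT2 (74.8 ± 8.30) and XAF1 (74.3 ± 39.8). From IRF2 to XAF1, neighbours in the order did not differ by more than the spread between lists, whereas IFIT3 exceeded IRF2 in every list, with 98.9, 95.2 and 97.6 against 84.2, 87.4 and 77.5. In Hs578T replicate 1 XAF1 stood above IFIT3, at a percentile of 99.0. At the low end, OAS3 (3.29 ± 2.75), SAMD9L (6.17 ± 1.24), IFI6 (6.37 ± 4.70), USP18 (7.07 ± 1.26) and IFITM1 (7.82 ± 2.98) overlapped one another in percentile. By mean width the order was IFI35, IFIT3, IRF7, XAF1 and IFIT2, with 10440, 6889, 4760, 4359 and 4248 bp. By covered bases it was IFIT2, IFIT3, IRF1, IFI35 and ISG15, with means of 31170, 29820, 23910, 23100 and 15760 bp.

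**Figure D4:**
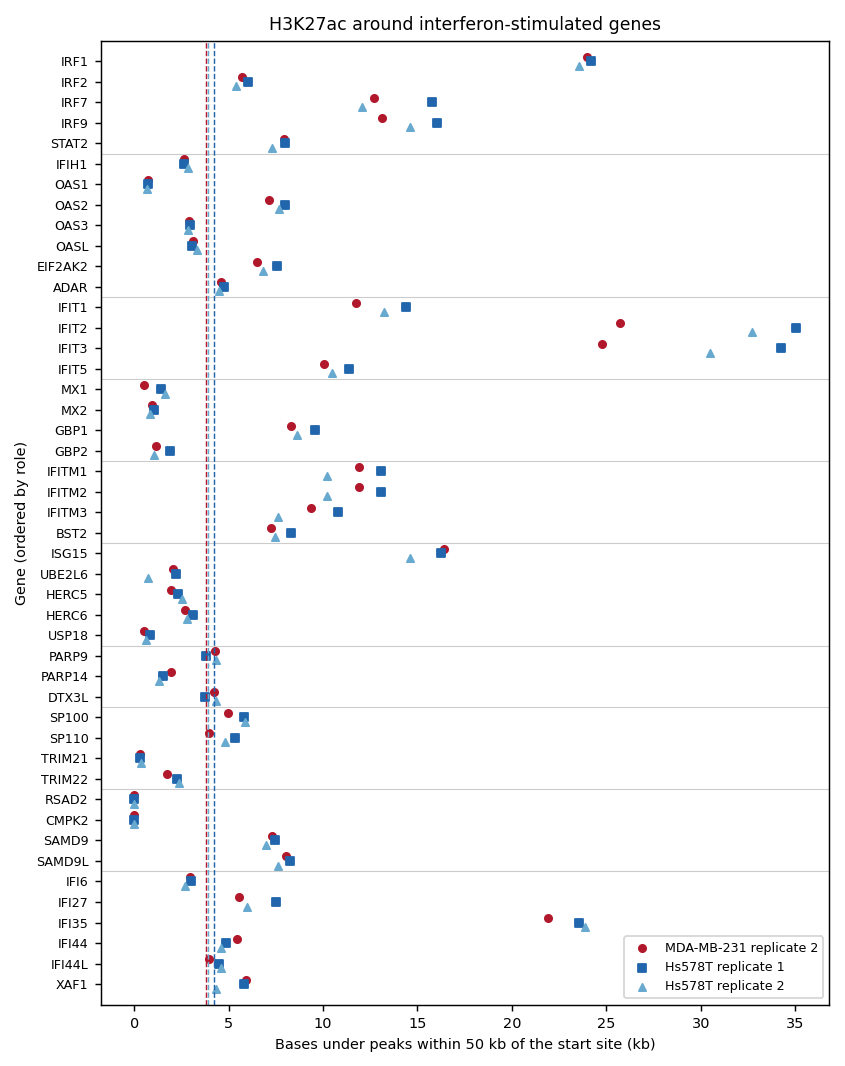
Bases under H3K27ac peaks within 50 kb of the start site (kb) for each gene in the 3 large lists, with dashed lines at the median over all protein-coding genes of each list. IFIT2, IFIT3, IRF1 and IFI35 have the 4 highest values in every list, and RSAD2 and CMPK2 lie at 0.

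To ask whether the lines differed at these genes, the values of each list were set side by side. On average 20.5 ± 29.0 genes (SD, n = 2) were marked in the MDA-MB-231 lists and 41.5 ± 0.707 in the Hs578T lists. Without the small list the MDA-MB-231 value was 41. The median of covered bases was 2597.75 ± 3670 bp in MDA-MB-231 and 5133.75 ± 629 bp in Hs578T, and 5195.5 bp for MDA-MB-231 replicate 2 alone. No test was made, because the smallest two-sided p-value an exact permutation of 2 against 2 libraries allows is 0.33.

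Among the 40 genes marked in all 3 large lists, the peak was narrower in MDA-MB-231 replicate 2 than in both Hs578T lists for 19 (47.5%, interval 32.9% to 62.5%), beside 35.8% of all such genes, and wider for 9 (22.5%), beside 30.1%. The percentile was lower there for 20 (50%), beside 37.4%, and higher for 13 (32.5%), beside 40.6%. Of the 46, 19 (41.3%) had fewer covered bases than in both Hs578T lists, beside 37.0%, and 5 (10.9%) had more, beside 19.3%. The widest differences were at IFIT3, SP100 and EIF2AK2, where the width in MDA-MB-231 replicate 2 was 0.344, 0.432 and 0.461 times the mean of the Hs578T lists, and in the other direction at IRF1, where it was 2.13 times that mean. These rest on 1 usable MDA-MB-231 list, and where a caller joins or splits a domain, as at IFIT3 and XAF1, the width changes in steps.

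The order of the genes was nonetheless much the same in the 3 large lists. Spearman's rho of the fold enrichment across genes marked in both lists was 0.913 between the Hs578T lists (n = 41), 0.914 between MDA-MB-231 replicate 2 and Hs578T replicate 1 (n = 41) and 0.846 between MDA-MB-231 replicate 2 and Hs578T replicate 2 (n = 40). Over all genes marked in both it was 0.957, 0.929 and 0.908. For covered bases over the 46 genes it was 0.991, 0.992 and 0.982. Genes are not independent replicates, and those that are neighbours share peaks. For these genes the replicates of Hs578T were therefore no closer to each other in rank than Hs578T replicate 1 was to the MDA-MB-231 list.

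The sequence around the start sites was examined next. Most mammalian promoters that are marked in many cell types lie in CpG islands, so the ratio of observed to expected CpG was computed over the 1 kb upstream and downstream. Its median was 0.287 for the 46 genes, from 0.109 at GBP1 to 0.893 at HERC5, and 0.637 for all genes. Below a ratio of 0.6 were 35 genes, of which 32 (91.4%) were marked in all 3 large lists, compared with 29.7% of all 8723 genes below it. At or over the ratio were 11 genes, of which 8 (72.7%) were marked, compared with 75.8%. The 3 that were not marked in all 3 large lists were UBE2L6, MX1 and CMPK2. With a ratio of 0.4 as the limit, 24 of 27 genes below it (88.9%) were marked, beside 12.3% of all such genes, and 16 of 19 (84.2%) at or over it, beside 70.8%. Below 0.6 the genes not marked in all 3 large lists were OAS1, TRIM22 and RSAD2.

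The rank of the peaks did not follow the same pattern. The median percentile of the CpG-poor genes marked in all 3 large lists was 27.1, below the 41.2 of all such genes, whereas that of the CpG-rich ones was 54.2, next to 54.6. High and low percentiles occurred at similar ratios, since IFIT3 had a ratio of 0.193 and IFI6 one of 0.214.

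**Figure D5:**
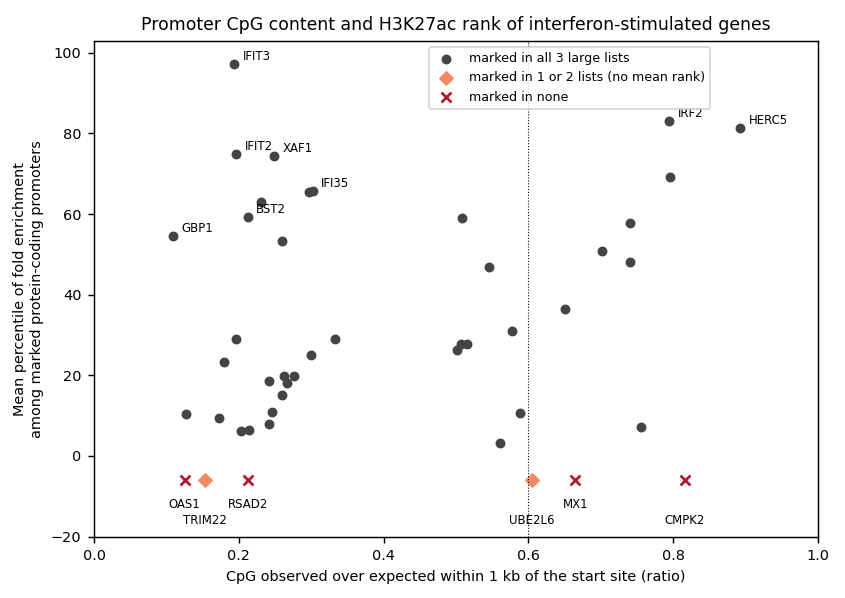
Ratio of observed to expected CpG within 1 kb of the start site (horizontal) against the mean percentile of fold enrichment over the 3 large lists (vertical), one point per gene, with genes not marked in all 3 lists drawn under the axis zero without a percentile. Of the genes left of the dotted line at 0.6, 32 of 35 are marked in all 3 lists, and they spread from IFIT3 at 97.2 down to OAS3 at 3.29.

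Response element cores were frequent upstream. In the 250 bases before the start site, this core, on either strand, was found for 22 of the 46 genes (47.8%), beside 2.84% of all promoters of that length. These were ADAR, BST2, GBP1, HERC5, IFI27, IFI44, IFI44L, IFI6, IFIH1, IFIT1, IFIT2, IFIT3, IFIT5, IFITM1, IFITM3, ISG15, OAS3, PARP14, PARP9, RSAD2, SAMD9 and USP18. HERC5, IFI6 and IFIH1 held 3 matches each, with percentiles at opposite ends of the order for HERC5 and IFI6. Of genes marked in all 3 large lists 21 of 40 held a match, beside 2.43% of all genes so marked, and of the others 1 of 6, RSAD2. Over all promoters, 47.6% of those with a match were marked in all 3 large lists, beside 55.9% of those without. The median percentile was 27.8 with a match and 30.9 without.

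The core of the gamma-activated site, TTCNNNGAA, was found for 12 genes (26.1%), beside 5.68% of all promoters, among them IRF1, IRF2, IRF7 and IRF9. The AP-1 letters TGANTCA were found for 6 (13.0%), beside 4.73%, namely GBP2, MX1, MX2, OAS2, SAMD9L and SP100. Matches to different letters may overlap. A match of letters does not show binding, and a promoter without one can hold a variant of the element.

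The rest of the pathway, 31 genes not counted above, was less completely marked, with a promoter peak for 19, 20 and 19 of them and for 18 (58.1%) in all 3 large lists, close to the 55.6% of all genes. All 7 interferon genes examined lacked a promoter peak, and the nearest peak to IFNB1, the gene of interferon beta, was 321555, 321537 and 321414 bp away. The kinases JAK1, JAK2 and TYK2 were marked in all 3 lists, as were the receptor genes IFNAR1, IFNAR2, IFNGR1 and IFNGR2, whereas IFNLR1 and IL10RB, which form the receptor of type III interferons, were each marked in some of the large lists. Of 5 further factors, STAT3 and IRF3 were marked, and IRF4, IRF5 and IRF8 were not.

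Sensors of nucleic acid were marked for 7 of 8 genes, with TLR3 the exception. STING1, the adaptor of cytosolic DNA sensing, reached 24.1, 28.4 and 23.7, at percentiles of 96.7, 99.2 and 99.4, above every one of the 46 genes in both Hs578T lists and below IFIT3 in MDA-MB-231 replicate 2. The feedback inhibitors SOCS1 and SOCS3 were both marked, and peaks covered 35500, 41027 and 36774 bp within 50 kb of SOCS3, more than at any of the 46 genes in each list.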

How the data were processed

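H3K27ac ChIP-seq peak lists of 4 libraries were used, 2 biological replicates of each line, grouped by sample title. The authors trimmed reads with Trimmomatic, aligned them to hg38 with Bowtie2, used MACS2 with the input library as control for calling, and took out blacklisted regions by means of bedtools. The submitters' processing notes also name deepTools. Tool versions and MACS2 settings are not given in the sources used here, and the 9 columns match broad peak output. Each deposited peak has a start and an end as coordinates, a score equal to 10 times the −log10 q-value within 1 unit, a ratio of signal to local background (the fold enrichment), and deposited −log10 values of p and of q. Read numbers were not used, so depth is unknown, and weak peaks can pass or miss the threshold with depth or input.

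Start sites came from GENCODE release 44 on assembly 38, and 0 peaks ran past a chromosome end. A promoter peak overlapped the 2001 bp centred on the canonical start site by at least 1 bp. Covered bases are the union of peaks within 50 kb. Percentiles of fold enrichment were taken within a list. Python 3.11.15, pandas 2.3.3, NumPy 2.4.6, SciPy 1.17.1 and matplotlib 3.10.9 were used, and the overlap and interval code was tested on simulated data. Percentages carry 95% Wilson intervals, which cover counting error only. The response element core was GAAA, 2 bases of any kind and GAAA, on both strands. An upper limit for a count of 0 is 3 counts. No test was made.

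The genes and lists were chosen with earlier results of these data known. All 46 genes were accounted for. Described in full were genes not marked in all 3 large lists, the 5 highest and 5 lowest by mean percentile, the 5 widest, the 5 with the most covered bases, and genes in shared neighbourhoods. Alternatives were other start sites, windows, overlaps, peak thresholds, list sizes and radii, and leaving out each replicate. Some items are not reported here.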

Additional observations from a re-analysis of the deposited data

How the results depend on the processing

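Of 67 recomputed values for 11 results, 56 moved by less than the replicate SD, stayed within the interval of a share or, for counts, stayed within 1.5 times. The other 11 moved further, and reversal was not scored. Some of the 56 could not have moved. With 2 libraries per line, leaving 1 out always shifts the mean by less than the SD, in both lines. The count of 0 in MDA-MB-231 replicate 1 could not fall under a stricter setting. The list size used for lists of equal length, 43353 peaks, was that of MDA-MB-231 replicate 2 in full. For the MDA-MB-231 means this tally says nothing about stability, because the list of 209 peaks makes their SD very large (29.0 genes and 3670 bp). Their median of covered bases, 2597.75 bp, ranged from 1119.5 bp within 10 kb to 4885 bp within 100 kb. Keeping the strongest 50% of each list left 26 genes marked in MDA-MB-231 replicate 2, 27 in Hs578T replicate 1 and 22 in Hs578T replicate 2, 21 in all 3 large lists and 17 in none. A −log10 q-value of at least 5 left 10 genes marked in none. The mean Hs578T median of covered bases, 5133.75 bp, became 2386.25 bp within 10 kb, 10073.8 bp within 100 kb, 3184.5 bp with the strongest 50%, 4204 bp with the q-value limit and 3665.5 bp without the promoter window. Leaving out a replicate gave 0 to 41 marked genes and 0 to 5195.5 bp in MDA-MB-231, depending on whether replicate 1, with 209 peaks, or replicate 2 was kept, and 41 to 42 genes and 4689 to 5578.5 bp in Hs578T. Every basic transcript start gave 41 genes marked in all 3 lists and 3 in none, and requiring the start site inside the peak gave 38 and 5. A CpG ratio of 0.4, chosen after seeing the data, gave 88.9% of CpG-poor genes marked, beside 12.3% of all genes. No paired analysis was possible because no result comes from a test. Absence of a peak does not show absence of the mark at unknown depth, and effects of washout or interferon were not measured.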
